A study of Mus musculus with 8 samples.

Results

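Fos-high cells were defined as sorted spinal cord microglia with at least 3 unique molecular identifiers (UMIs, one per captured RNA molecule) of Fos. They were taken from the 4 libraries in which cells with and without Fos were mixed, after a filter of at least 1000 UMIs, at least 500 genes and at most 10% mitochondrial UMIs. This gave 1312 cells of the 9182 that passed the filter in these libraries (14.3%), out of 14626 in the whole series. Because the cells were selected on Fos, their Fos values are given as a description without a test. The tests concern other genes, compared with cells of the same library that held 0 Fos UMIs at a matched total of UMIs.

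The series measured RNA in single microglia of the lumbar cord with droplet 3′ sequencing, in 8 libraries from C57BL/6 mice. Microglia are macrophages that settle in the brain and spinal cord before birth and maintain themselves there. All animals carried Cx3cr1-yfp-creER on 1 allele, so that YFP and an inducible Cre were driven from the Cx3cr1 locus, which circulating monocytes also use. Control animals carried no further allele, and A20 cKO animals were in addition Tnfaip3 fl/fl, that is, floxed for the gene of the NF-κB inhibitor A20. The labels name bilateral transection of the sciatic nerve as the injury. Of the libraries used here, control day 2 and control day 3 came from control animals 2 and 3 days after injury, A20 cKO naive from uninjured A20 cKO animals and A20 cKO day 3 from A20 cKO animals 3 days after injury. Per the methods of the study the animals were young adults of both sexes that had been given tamoxifen, the cords of several animals were pooled for each library, and the tissue was dissociated mechanically before sorting for YFP. Each library was therefore 1 pool, and the 4 libraries served as the replicates of the comparison between Fos-high and Fos-0 cells.

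Fos is the classic immediate-early gene: its transcription starts within minutes of a stimulus without new protein synthesis, and its RNA is short-lived. Its protein pairs with Jun proteins to form the transcription factor AP-1. Partner genes of the same response encode further transcription factors (Egr1, Ier2, Klf2) and negative regulators that end it, such as the phosphatase Dusp1 and the RNA-decay factor Zfp36. In microglia they are known to respond to injury signals, inflammatory ligands and tissue dissociation, and which stimulus acted on these cells was not tested.

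The regulatory sequences of genes that move together in the Fos-high cells are shown because immediate-early genes are known to be switched on through short elements in this region. They are the 250 bases before the annotated start, read 5′ to 3′ on the gene's strand from RefSeq (GRCm38.p6). Capitals mark TGACG on either strand, the core of the cAMP response element, and its full palindrome TGACGTCA. Fos is the gene the cells were chosen by, Fosb had the largest fitted difference among the called genes, Junb is a marker of the cells, Dusp1 is a negative regulator of the response and Btg2 is an antiproliferative early gene.
Fos (chr12:85473640-85473889, + strand): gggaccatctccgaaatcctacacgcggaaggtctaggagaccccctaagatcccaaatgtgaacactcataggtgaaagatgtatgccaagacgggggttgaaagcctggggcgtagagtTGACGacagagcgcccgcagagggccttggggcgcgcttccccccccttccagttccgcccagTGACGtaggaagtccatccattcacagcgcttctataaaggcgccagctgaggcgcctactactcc
Fosb (chr7:19310046-19310295, − strand): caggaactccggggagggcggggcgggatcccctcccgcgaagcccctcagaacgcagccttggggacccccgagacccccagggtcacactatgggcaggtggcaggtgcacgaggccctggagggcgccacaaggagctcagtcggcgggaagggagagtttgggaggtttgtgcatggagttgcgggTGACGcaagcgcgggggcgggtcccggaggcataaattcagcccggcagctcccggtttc
Junb (chr8:84978749-84978998, − strand): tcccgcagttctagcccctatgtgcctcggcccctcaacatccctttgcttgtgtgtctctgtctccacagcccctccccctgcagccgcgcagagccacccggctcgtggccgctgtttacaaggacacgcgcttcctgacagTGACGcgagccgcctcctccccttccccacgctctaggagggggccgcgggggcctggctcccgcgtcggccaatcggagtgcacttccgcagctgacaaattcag
Dusp1 (chr17:26508473-26508722, − strand): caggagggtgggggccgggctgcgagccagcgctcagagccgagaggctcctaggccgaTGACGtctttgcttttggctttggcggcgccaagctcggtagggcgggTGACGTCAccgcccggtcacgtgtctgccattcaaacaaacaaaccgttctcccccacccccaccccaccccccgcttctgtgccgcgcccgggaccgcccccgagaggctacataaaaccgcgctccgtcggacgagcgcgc
Btg2 (chr1:134079156-134079405, − strand): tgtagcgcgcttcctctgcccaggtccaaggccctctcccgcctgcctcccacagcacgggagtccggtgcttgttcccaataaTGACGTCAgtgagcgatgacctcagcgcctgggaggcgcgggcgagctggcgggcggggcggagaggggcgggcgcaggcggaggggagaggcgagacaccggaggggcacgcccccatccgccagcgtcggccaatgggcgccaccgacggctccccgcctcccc
Of Fos and the 23 early genes called higher below, 19 had 23 such windows in the reference table. TGACG, searched on both strands, stood in 13 of these 23 windows (56.5%), which belonged to 11 of the 19 genes, and in 17.8% of all 32851 windows. In the Fos window it lay 129 to 125 and 66 to 62 bases before the start, in that of Fosb 60 to 56 and in that of Junb 106 to 102 bases before it. The palindrome TGACGTCA, which contains TGACG, stood in 3 of them, those of Btg2, Dusp1 and Ppp1r15a (13.04%), and in 1.55% of all. The CArG box, bound by serum response factor, stood in 5 windows (21.7%) against 1.47% of all. However, 4 of the 5 were alternative windows of Egr2 and the other was that of Zfp36, so that 2 of the 19 genes held it within the window. Bases further than 250 before the start were not searched, so that a CArG box further out would be missed. Egr1, Ier2, Zfp36l2, Trib1 and Rgs1 had no window. TATAAA stood in 3 windows (13.04% against 12.4%). The AP-1 site TGAGTCA, whose reverse complement is TGACTCA, and the EGR site GCGTGGGCG stood in none of the 23, against 4.46% and 0.536% of all windows. Alternative windows of Egr2 also counted more than once among the 13 with TGACG. The printed windows were 58.4% to 73.2% G and C, and the set of all windows was not matched to them in base composition. A match describes letters in this window and not a bound site.

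The share of Fos-high cells was 9.34% in control day 2 (335 of 3585 cells, exact 95% binomial interval 8.41% to 10.3%), 13.1% in control day 3 (277 of 2117, 11.7% to 14.6%), 19.8% in A20 cKO naive (580 of 2922, 18.4% to 21.3%) and 21.5% in A20 cKO day 3 (120 of 558, 18.2% to 25.2%). Intervals here and below cover counting error only, and with 1 library a condition the shares were not tested. The libraries differed in depth, with median totals of 3911, 3191, 2824 and 4274 UMIs per cell in the same order. When every cell of at least 2000 UMIs was thinned to 2000, the shares were 2.098%, 7.19%, 13.8% and 11.5%, so that both A20 cKO libraries stayed above both control libraries while their own order turned. Cells with at least 1 Fos UMI made up 40.2% to 45.0% of the 4 libraries, and at 2000 UMIs 25.3%, 31.2%, 39.9% and 30.1%.

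The other 4 libraries were outside the rule because nearly all or nearly none of their cells passed it. In control day 1, 3154 of 3323 cells (94.9%) held at least 3 Fos UMIs. In control naive, A20 cKO day 1 and A20 cKO day 2 only 2, 3 and 3 cells did. The mixed libraries were chosen by their Fos, so that their shares lay between these extremes follows from the rule and is not a result.

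**Figure D1:**
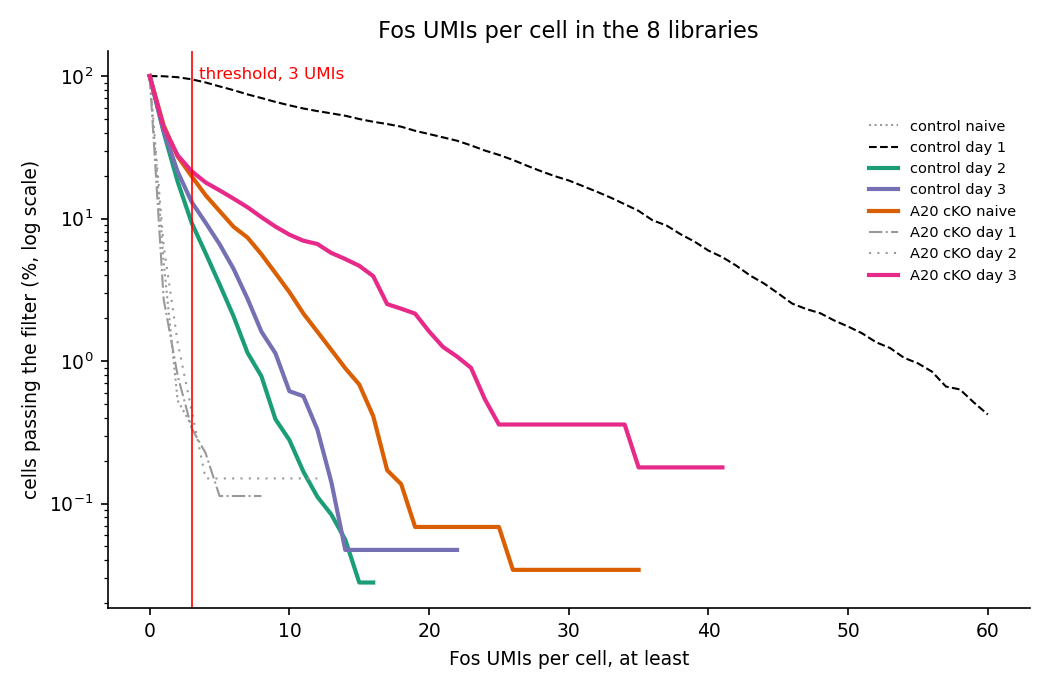
Share of cells passing the filter (vertical axis, percent, log scale) that held at least the given number of Fos UMIs (horizontal axis, shown to 60) in each of the 8 libraries. The 4 coloured lines are the mixed libraries, which run from 9.34% to 21.5% at the threshold of 3 UMIs, between control day 1 at 94.9% and the 3 grey lines at 0.339% to 0.450%.

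Within the Fos-high cells the median was 4 Fos UMIs in control day 2, 5 in control day 3, 5 in A20 cKO naive and 7 in A20 cKO day 3, and the highest cells held 16, 22, 35 and 41. The cells over 10 Fos UMIs numbered 6, 12, 63 and 39, so most of these 120 cells came from the A20 cKO libraries. At the other end, 383 of the 1312 cells held exactly 3. The Fos-high cells accounted for 51.6%, 64.8%, 79.0% and 87.7% of all Fos UMIs of their libraries, the lowest share in control day 2 and the highest in A20 cKO day 3. They also had more RNA counted than Fos-0 cells, with median totals of 5120 against 3666.5 UMIs, 3638 against 3001, 3180 against 2635.5 and 5210 against 3867. For this reason 1277 of them were paired with 1277 of the 5310 Fos-0 cells within 10% of the same total, which left 35 unpaired.

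The label of microglia was checked against 8 defining genes, among them P2ry12, Tmem119, Csf1r and Siglech. At least 3 of them were detected in 1298 of the 1312 Fos-high cells (98.9%) and in 5301 of 5310 Fos-0 cells (99.8%). The 14 Fos-high cells under 3 markers included 9 of control day 3, 3 of A20 cKO naive and 2 of A20 cKO day 3. Those 9 cells had a median total of 1084 UMIs and held 151 UMIs of Ttr, a choroid plexus gene, and 26 of Cldn5, an endothelial gene. Among markers of other cells, the 8 genes of other macrophages and monocytes summed to between 1.15 and 11.9 CPM (UMIs of a gene scaled to a fixed total per sum) in Fos-high cells and between 1.73 and 12.8 CPM in matched Fos-0 cells, with Cd163 at 0. Those of neutrophils summed to at most 42.0 and 22.6 CPM, lymphocytes to 40.9 and 45.5 CPM, oligodendrocytes to 268 and 236 CPM, astrocytes to 23.8 and 17.0 CPM, neurons to 1.15 and 1.70 CPM, endothelial and mural cells to 76.6 and 31.9 CPM, and choroid plexus and red cells to 177 and 15.3 CPM. Most genes of these lists had too few counts to be tested, among them all those of macrophages and monocytes, neutrophils, astrocytes and neurons. Tested were 1 gene of lymphocytes, 4 of oligodendrocytes, 1 of endothelial and mural cells and 1 of choroid plexus and red cells. With no minimum count, 2 of 6 endothelial and mural genes were called higher (median 1.58). Of the genes tested in the main comparison, 1 was called: Ttr, which was higher by 2.42 (log2). This value rests on 1 cell of control day 3 with 151 of the 194 Ttr UMIs of its Fos-high cells. With cells under 3 markers left out the Ttr difference was 0.86 and not called.

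In the deletion design the targeted gene is no check of the labels here: Tnfaip3 stood at 20.3 CPM or less in the control day 2 and day 3 libraries and at 47.5 and 67.7 CPM in A20 cKO naive and day 3, and 3′ tags need not fall in the part that Cre removes. Barcodes of 31 Fos-high cells (2.36%) also occurred in another of the 8 libraries, and pairs of the 4 libraries shared between 3 and 19 barcodes. With shared barcodes left out, 148 genes were called higher and 226 lower.

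UMI sums of the paired cells were compared over the 4 libraries with edgeR's quasi-likelihood test, with the library as a block and Fos removed. Of 8633 genes with at least 100 UMIs over the 8 sums, 175 (2.03%) were higher and 210 (2.43%) lower in Fos-high cells at a Benjamini-Hochberg adjusted p below 0.05. The higher calls were led by the early genes, with log2 differences of up to 3.34, whereas the lower calls were mostly small and held interferon-response, mitochondrial and ribosomal protein genes. Leaving out A20 cKO naive gave 81 higher and 80 lower genes, and leaving out control day 3 gave 88 and 60. Without pairing on total UMIs, 299 genes were called higher and 110 lower, so the share of higher among all calls was 73.1% in place of 45.5%.

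Egr1, a zinc-finger transcription factor of the early response, stood at 92.8 CPM in Fos-high against 36.3 CPM in matched Fos-0 cells of control day 2, 204 against 52.9 in control day 3, 421 against 131 in A20 cKO naive and 469 against 124 in A20 cKO day 3. The Fos-high level was above its own Fos-0 level in every library, yet that of control day 2 lay below the Fos-0 level of both A20 cKO libraries. The difference was 1.72 ± 0.090 (log2 fold change ± SE, edgeR adjusted p = 4.04e-21). Cells with at least 1 Egr1 UMI, at 2000 UMIs per cell, made up 18.2% of Fos-high and 6.39% of Fos-0 cells in control day 2, 28.0% and 6.06% in control day 3, 51.4% and 18.2% in A20 cKO naive, and 50.5% and 18.9% in A20 cKO day 3. Unthinned, the shares were 35.9% and 19.0%, 45.8% and 14.4%, 68.5% and 28.1%, and 72.6% and 31.9%.

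Junb, an AP-1 subunit that pairs with Fos, stood at 715 against 445 CPM in control day 2, 1203 against 511 in control day 3, 1602 against 689 in A20 cKO naive and 1488 against 648 in A20 cKO day 3. The 4 Fos-high levels and the 4 Fos-0 levels did not overlap, and control day 2 had the smallest difference. The fitted difference was 1.08 ± 0.068 (edgeR adjusted p = 4.88e-18). Unlike Egr1, Junb was detected in most cells of both kinds, in 72.8% to 89.98% of Fos-high and 52.1% to 61.7% of matched Fos-0 cells at 2000 UMIs. Unthinned, the shares were 88.5% to 93.7% and 74.3% to 84.1%.

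Of the 9 listed genes of the AP-1 family other than Fos, 6 had enough counts to be tested, and 4 were called higher and none lower. The median over the 6 was 1.28, beside −0.00 over all genes tested. Fosb, the closest relative of Fos, stood at 73.8 against 14.4 CPM in control day 2, 355 against 38.3 in control day 3, 299 against 25.1 in A20 cKO naive and 253 against 10.2 in A20 cKO day 3. It had the largest fitted difference among the called genes (3.34 ± 0.130, edgeR adjusted p = 2.41e-26). Jun, the main partner of Fos, stood at 1021 against 492 CPM, 2072 against 534, 3014 against 788 and 2509.7 against 368 in the same order. Its difference was 1.87 ± 0.102 (edgeR adjusted p = 1.57e-20), and the lowest Fos-high level lay above the highest Fos-0 level. Jund, which most cells express without a stimulus, was higher by 1.47 ± 0.088. Atf3, a stress-induced member, did not pass the test (0.09 ± 0.189, edgeR adjusted p = 0.904). Batf was not called either (0.13). Atf3 stood at 12.1 to 44.2 CPM in Fos-high and 16.4 to 50.9 CPM in Fos-0 cells.

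Of 18 further early transcription factors, Egr1 included, 11 were tested, of which 8 were higher and none lower, with a median of 1.02. Ier2 was higher by 1.73 ± 0.121 with per-library log2 ratios of 0.93, 1.17, 2.11 and 2.77. Klf4 (1.68 ± 0.142) and Klf2 (1.59 ± 0.097), Krüppel-like factors that restrain inflammatory activation of macrophages, were higher in all 4 libraries. Egr2 (1.62 ± 0.345, higher in 3 of 4 libraries), Ier3 (1.02 ± 0.202), Ier5 (0.72 ± 0.084) and Klf6 (0.55 ± 0.076) were the remaining calls. Myc, whose protein drives cell growth and division, was not among them (0.26 ± 0.132, edgeR adjusted p = 0.362), nor was Cebpb (−0.05 ± 0.064, adjusted p = 0.818). Myc stood at 53.6 against 51.9 CPM in control day 2, 61.1 against 46.5 in control day 3, 55.9 against 48.7 in A20 cKO naive and 54.4 against 28.8 in A20 cKO day 3. Nr4a1, an orphan nuclear receptor of the early response, was near the limit of detection at 0.512 to 6.39 CPM and was not tested.

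Genes of negative feedback and RNA decay were higher as well, in 11 of the 13 tested of 19 listed, with a median of 0.76 and none lower. Dusp1, which dephosphorylates MAP kinases, stood at 122 against 35.8 CPM in control day 2, 314 against 74.8 in control day 3, 508 against 114 in A20 cKO naive and 527 against 79.7 in A20 cKO day 3. The Fos-high levels were all above the Fos-0 levels, and the difference was 2.17 ± 0.092 (edgeR adjusted p = 6.64e-25). Rgs1 (1.44 ± 0.078), a regulator of G-protein signalling, and Btg2 (1.39 ± 0.085) followed. Zfp36 (1.03 ± 0.091), Ppp1r15a (0.93 ± 0.123), Zfp36l1 (0.82 ± 0.069) and Dusp6 (0.76 ± 0.080) were also higher. Outside the lists, the protease gene Adamts1 was among the 10 largest differences at 1.91 ± 0.150.

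Under 18 other settings of the comparison, all with the library as a block, 4 AP-1 genes, 5 to 9 of the further transcription factors and 9 to 11 of the feedback genes were called higher. None of the 3 lists held a lower call. Without the block no gene was called in either direction, and that setting is left out of the counts over other settings here and below.

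**Figure D2:**
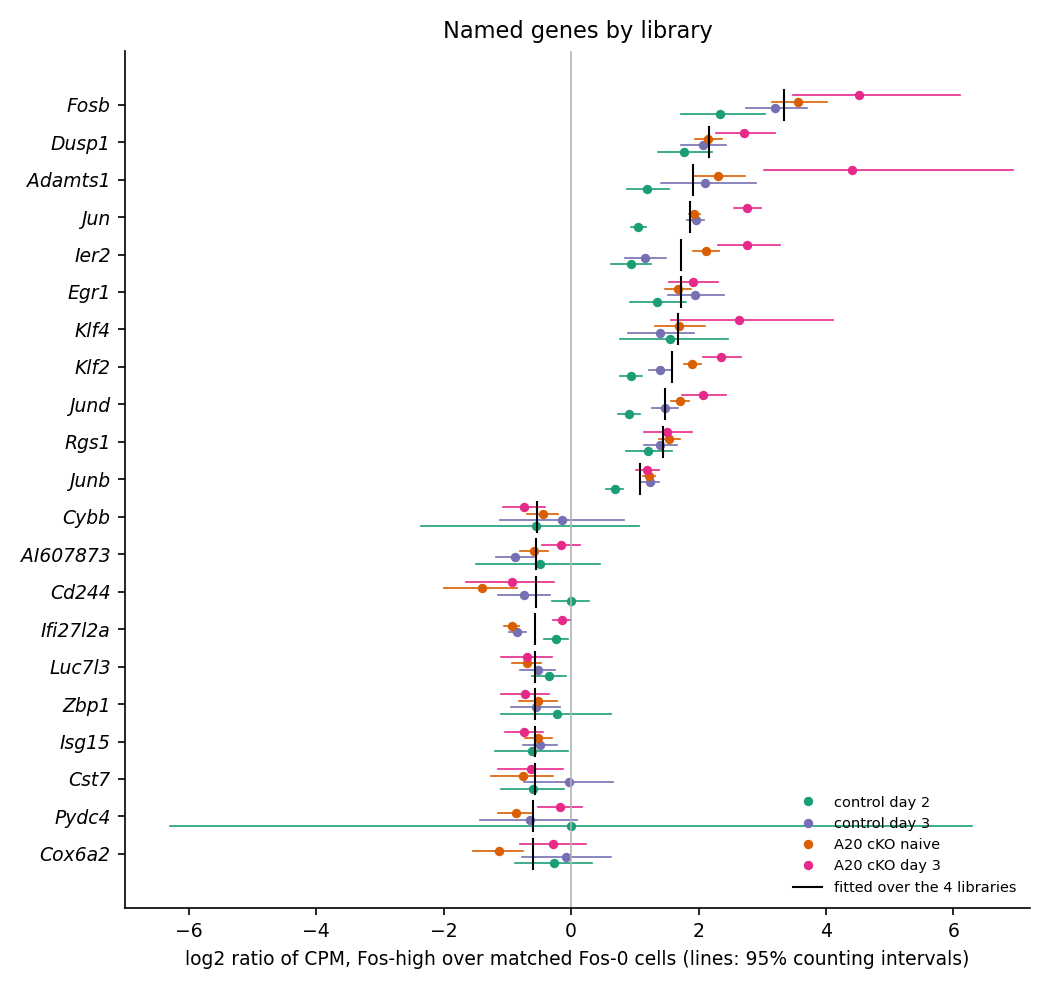
Log2 ratio of CPM between Fos-high and matched Fos-0 cells (horizontal axis) for the 10 higher and 10 lower called genes with the largest differences under the naming rule and for Junb, by library (coloured points with 95% counting intervals) and as fitted over the 4 libraries (black bars). Control day 2 has the smallest ratio for 10 of the 11 higher genes, and the lower genes lie between −0.60 and −0.54 as fitted.

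The early genes were also detected together within single cells. Of 12 early genes other than Fos (Fosb, Jun, Junb, Jund, Egr1, Ier2, Atf3, Dusp1, Zfp36, Klf2, Klf6 and Btg2), the median Fos-high cell at 2000 UMIs held 5 in control day 2, 6 in control day 3, 7 in A20 cKO naive and 7 in A20 cKO day 3. The median matched Fos-0 cell held 3, 3, 4 and 3. Cells with 6 or more of the 12 made up 28.8% of Fos-high and 6.71% of Fos-0 cells in control day 2, 62.1% and 12.5% in control day 3, 79.8% and 19.3% in A20 cKO naive, and 68.5% and 9.91% in A20 cKO day 3. At this depth the Fos-high cells of control day 2 held the fewest, and in each library a minority of Fos-0 cells also held 6 or more. Unthinned, the shares with 6 or more were 82.5% and 51.7% in control day 2 and 86.3% and 39.4% in control day 3. They were 90.4% and 42.8% in A20 cKO naive and 96.5% and 38.9% in A20 cKO day 3. The threshold of 3 Fos UMIs was set on unthinned counts, and the part of depth in the order of the libraries was not tested.

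**Figure D3:**
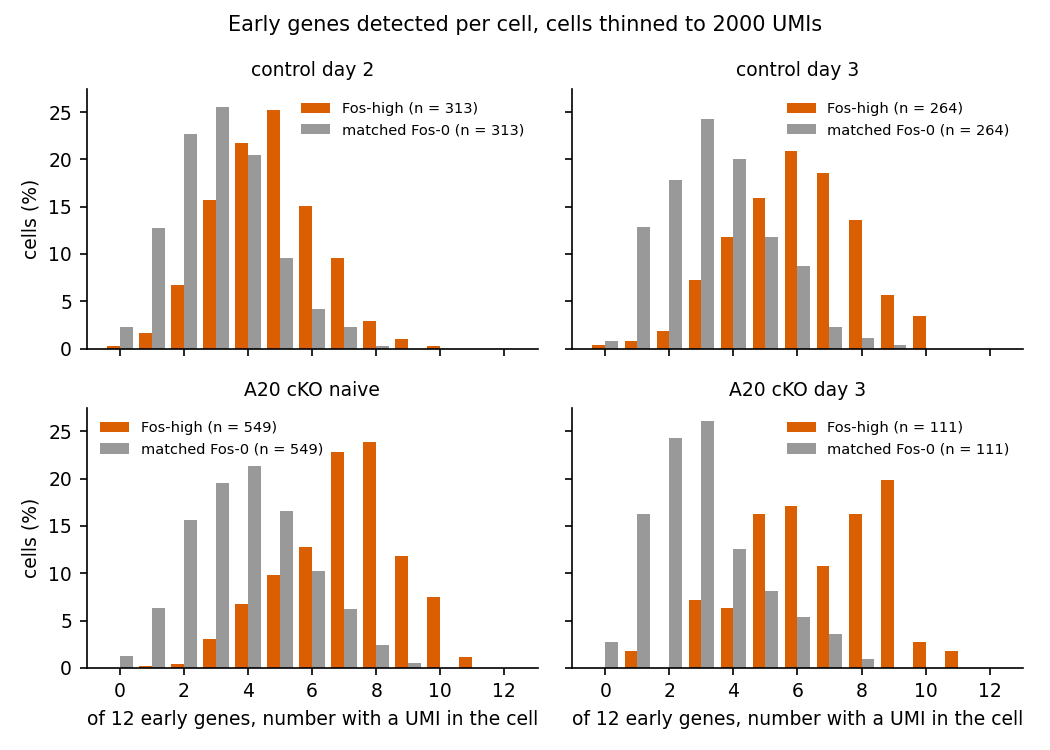
Number of the 12 early genes other than Fos detected per cell at 2000 UMIs (horizontal axis) against the percent of cells (vertical axis) in each of the 4 libraries, for Fos-high and matched Fos-0 cells. The Fos-high distributions lie to the right, with medians of 5 to 7 genes against 3 to 4.

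Levels of early genes were also followed over classes of Fos UMIs, which is a description since Fos set the classes and cells with more Fos UMIs tend to hold more UMIs in all. In A20 cKO naive, Egr1 stood at 138 CPM in cells with 0 Fos UMIs, 207 in cells with 1 or 2, 362 with 3 to 5, 472 with 6 to 10 and 519 with over 10. In A20 cKO day 3 the same classes stood at 105, 177, 313, 513 and 564 CPM, and in control day 3 at 44.6, 81.8, 165, 266 and 347 CPM. In control day 2 they stood at 35.7, 47.4, 78.5, 131 and 128 CPM, the last from 6 cells. Not every early gene increased at each step: Dusp1 in control day 3 stood at 320 CPM with 3 to 5 Fos UMIs and 292 with 6 to 10, and Junb in A20 cKO day 3 at 1664 CPM with 6 to 10 and 1571 with over 10. Egr1 was already above the Fos-0 class in the cells just outside the rule, and there was no step at the threshold that all libraries shared. Cells with exactly 2 and exactly 3 Fos UMIs stood at 62.0 and 63.3 CPM of Egr1 in control day 2, 99.6 and 175 in control day 3, 222 and 344 in A20 cKO naive, and 195 and 198 in A20 cKO day 3.

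**Figure D4:**
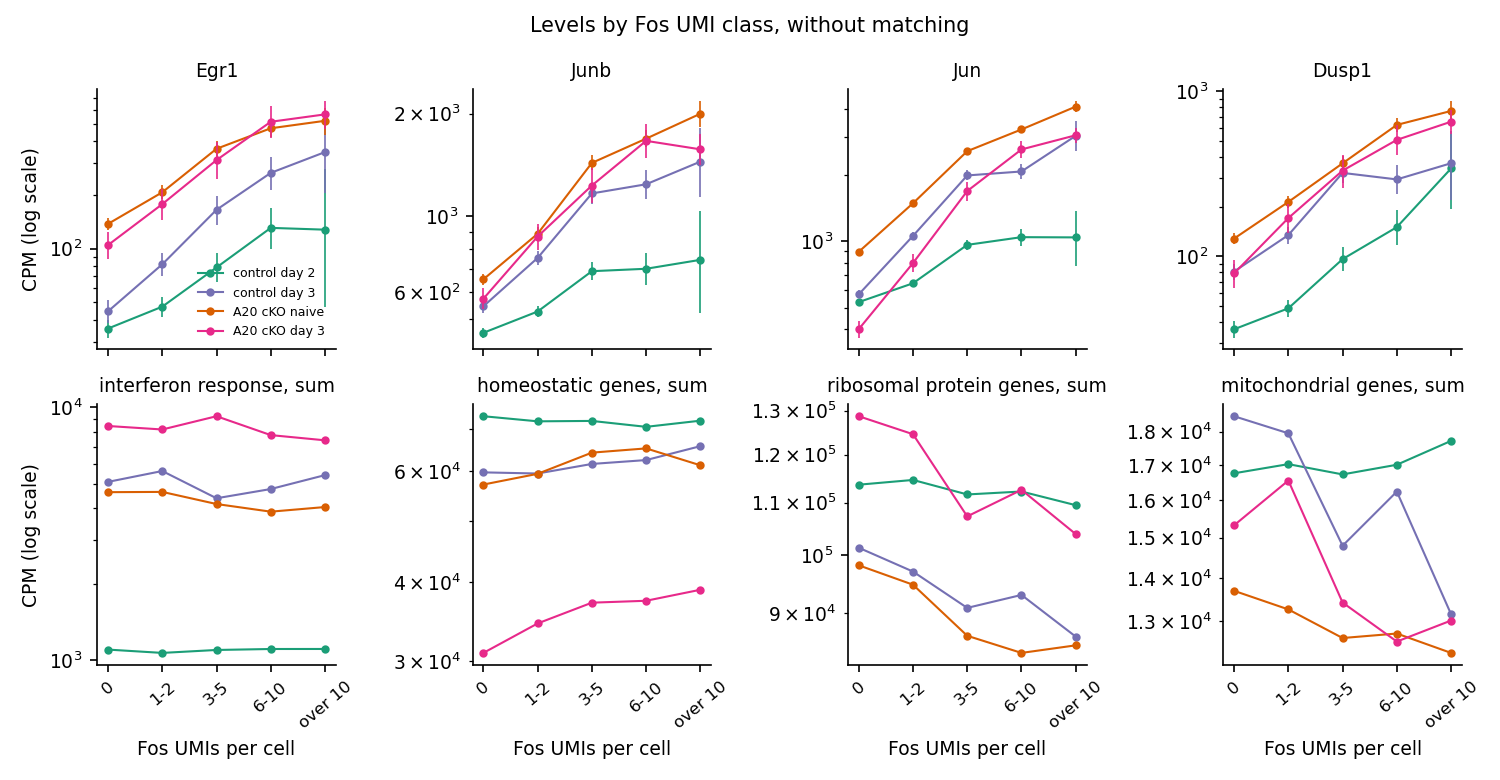
Level in CPM (vertical axes, log scale, ranges differ) by class of Fos UMIs per cell (horizontal axis) in the 4 libraries without pairing, for 4 early genes (upper row, with 95% counting intervals) and the sums of 4 gene lists (lower row). Egr1 in A20 cKO naive runs from 138 CPM at 0 Fos UMIs to 519 CPM over 10.

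Genes that glucocorticoid hormones induce were higher in 4 of the 6 tested of 7 listed, with a median of 0.44 and none lower. These were Errfi1 (0.73 ± 0.194), Tsc22d3 (0.65 ± 0.087), Sgk1 (0.49) and Ddit4 (0.40), whereas Fkbp5 (0.06) and the clock gene Per1 (−0.13) were not called. Without control day 3, without pairing, against cells with 0 to 2 Fos UMIs and with DESeq2 the count was 2. Of 9 tested of 13 listed heat shock genes, the co-chaperone gene Dnajb1 was higher (0.52) and the mitochondrial chaperonin gene Hspe1 lower (−0.31). Without pairing 6 of 10 were higher and none lower (median 0.27), 3 were higher without control day 2, and without A20 cKO naive or control day 3 none was. Of 16 tested NF-κB targets, the inhibitor gene Nfkbia was higher (0.22 ± 0.068, edgeR adjusted p = 0.0445, in 3 of 4 libraries), the survival gene Bcl2a1d was lower (−0.44) and the median was 0.07. No NF-κB target was called higher in 8 of 18 other settings, among them without control day 2 and without control day 3. Tnfaip3 was 0.19 ± 0.164 (edgeR adjusted p = 0.690).

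The Fos-high cells held more RNA of several genes of the resting state of microglia. Of 25 homeostatic genes, all tested, 11 were higher and none lower, with a median of 0.15. Csf1r, the receptor on which microglia depend for survival, stood at 1884 against 1598 CPM in control day 2, 1871 against 1583 in control day 3, 1969 against 1504 in A20 cKO naive and 1752 against 1159 in A20 cKO day 3. Each Fos-high level lay above the Fos-0 level of its own library, and the difference was 0.35 ± 0.058 (edgeR adjusted p = 2.97e-05). Slc2a5, a fructose transporter (0.55 ± 0.093), and P2ry13, a purine receptor (0.40 ± 0.068), were higher too. Tmem119 (0.15 ± 0.055, adjusted p = 0.126) and Cx3cr1 (0.10 ± 0.056, adjusted p = 0.451) were higher in 4 of 4 libraries without passing the edgeR test. Under other settings 5 to 12 of the 25 were called higher and at most 1 lower, with 5 higher without pairing and without A20 cKO naive.

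Interferon-response genes were lower in the Fos-high cells, 12 of 23 with none higher and a median of −0.30. The 23 genes summed to 1094.5 CPM in Fos-high against 1177 in Fos-0 cells of control day 2, 4538 against 5845 in control day 3, 3944 against 5741 in A20 cKO naive and 7797.5 against 9023 in A20 cKO day 3. The sums were lower in each library, although the libraries differed among themselves far more than Fos-high from Fos-0 cells. Isg15, a ubiquitin-like modifier, stood at 25.9 against 39.8 CPM, 192 against 269, 166 against 236 and 263 against 439 in the same order (−0.57 ± 0.082, edgeR adjusted p = 1.53e-06). Ifi27l2a was lower by a like amount (−0.56 ± 0.079), with 601 against 1079 CPM in control day 3 and 1361 against 1498 in A20 cKO day 3. Without pairing on total UMIs 2 of the 23 were called lower, without A20 cKO naive 5 and without control day 3 6, with medians below 0 under every setting. Over the Fos classes, which were not paired on UMIs, the sum showed no decline in control day 2, at 1101 CPM with 0 and 1107 with over 10 Fos UMIs. With 0, 3 to 5 and over 10 Fos UMIs it stood at 5076, 4372 and 5399 CPM in control day 3. The same classes stood at 4621, 4148 and 4036 in A20 cKO naive and 8447, 9233 and 7413 in A20 cKO day 3.

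Of 14 tested cytokine and chemokine genes, 4 were lower and none higher, with a median of −0.14. This split depended on the setting, with 5 higher and 1 lower without pairing (median 0.16), 4 and 4 at a minimum of 5 Fos UMIs, and 1 and 5 without control day 2 (median 0.12). Cxcl13, a B-cell chemokine, was at 0 in both kinds of cell in control day 2, and in control day 3 it was at 0 in Fos-high cells and 6 UMIs in 1 Fos-0 cell. It stood at 294 against 1019 CPM in A20 cKO naive and 365 against 1162 in A20 cKO day 3, so its fitted difference of −1.75 ± 0.094 rests on these 2 libraries. The share of cells with Cxcl13 differed less than the level, at 16.4% against 21.0% in A20 cKO naive (difference −4.55 percentage points, 95% interval −9.05 to −0.0216) and 27.4% against 33.6% in A20 cKO day 3 (−6.19, −17.9 to 5.78). Among cells with Cxcl13, the Fos-high ones therefore held fewer UMIs on average, 574 UMIs in 94 cells against 1987 in 120 in A20 cKO naive. In that library 5 cells held 39.0% of the paired Fos-high and 5 held 35.6% of the paired Fos-0 UMIs. In A20 cKO day 3, 5 cells held 64.2% of the paired Fos-high and 5 held 54.6% of the paired Fos-0 UMIs. Without pairing, Cxcl13 stood there at 490 CPM in Fos-high and 866 in Fos-0 cells, and in A20 cKO naive at 288 and 609. The A20 cKO day 3 classes of 3 to 5, 6 to 10 and over 10 Fos UMIs stood at 278, 900 and 372 CPM. Cxcl16 (−0.52), Cxcl10 (−0.42) and Ccl12 (−0.23) were the other calls, and Tnf (0.05), Il1b (−0.41), Ccl3 (0.25) and Ccl4 (−0.06) were not called.

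Ribosomal protein genes were lower in 64 of 90 tested, with none higher and a median of −0.23, and mitochondrially encoded genes in 11 of 13, with a median of −0.28. The ribosomal protein genes summed to 110314 against 119577 CPM in control day 2, 91321.6 against 108042 in control day 3, 84760.9 against 105756 in A20 cKO naive and 108842 against 129002 in A20 cKO day 3. Each Fos-high sum was below its own Fos-0 sum. The median mitochondrial share per cell was 1.48% against 1.65%, 1.31% against 1.70%, 1.08% against 1.27% and 1.19% against 1.51%. Both counts moved with the settings: without pairing 15 ribosomal and 1 mitochondrial gene were called lower, and without control day 3 10 and 1, while both medians stayed below 0. In control day 2 the mitochondrial sum over the Fos classes, which were not paired on UMIs, showed no decline. From 0 to over 10 Fos UMIs it went from 18479.6 to 13149.5 CPM in control day 3. It went from 13689.5 to 12304.1 CPM in A20 cKO naive and from 15321.1 to 13008.1 CPM in A20 cKO day 3, though not downward at each step. CPM values share a total, so a higher share of some genes lowers that of others, and the part of this in these lists was not tested.

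Histone genes, chosen by symbol after their values were seen, were higher in 11 of 19 tested, with a median of 0.61. Hist4h4 stood at 47.8 against 17.3 CPM in control day 2, 62.0 against 13.7 in control day 3, 127 against 36.4 in A20 cKO naive and 40.8 against 18.7 in A20 cKO day 3 (1.72 ± 0.147). Hist2h4 (1.13), Hist1h1c (0.90) and Hist1h1e (0.69) followed, and 2 to 15 of the list were called under other settings. Several histone genes are near-identical copies, between which the counting could split reads. None of 18 core S-phase genes was called and their median was −0.10, whereas without pairing on total UMIs 5 were higher and the median was 0.24. Of 18 core G2/M genes 3 were lower (Ube2c −0.72, Hmmr −0.57, Mki67 −0.39) and none higher, but without pairing on total UMIs 11 were higher and the median was 0.44. Cells with at least 3 core G2/M genes made up 41.0% of Fos-high and 47.0% of Fos-0 cells in control day 2, 12.996% and 17.3% in control day 3, 3.32% and 5.42% in A20 cKO naive, and 10.6% and 15.9% in A20 cKO day 3. The share was lower in Fos-high cells in every library, and this shared direction was not tested. The 95% interval of each of these differences included 0, but it covers counting error within a library only. With dividing cells left out, 111 genes were called higher and 169 lower.

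Of 10 MHC class I genes none was called (median 0.04), although without pairing 3 were higher, and neither of the tested MHC class II genes was. Of 15 tested genes of disease-associated microglia, the protease gene Ctsd was higher (0.22 ± 0.051), the cystatin gene Cst7 (−0.57 ± 0.135) and the ferritin gene Fth1 (−0.30) were lower, and the median was −0.03. With dividing cells left out 7 of the 15 were lower and none higher (median −0.29), and 3 were lower and none higher without control day 3 (median −0.23). Among nuclear RNAs Neat1 was higher (0.84 ± 0.100) and Malat1 was 0.08. The lower genes with the largest differences also included Luc7l3, a splicing factor gene (−0.56 ± 0.081), at 121 against 154.5 CPM, 175 against 252, 140 against 227 and 146 against 238.

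**Figure D5:**
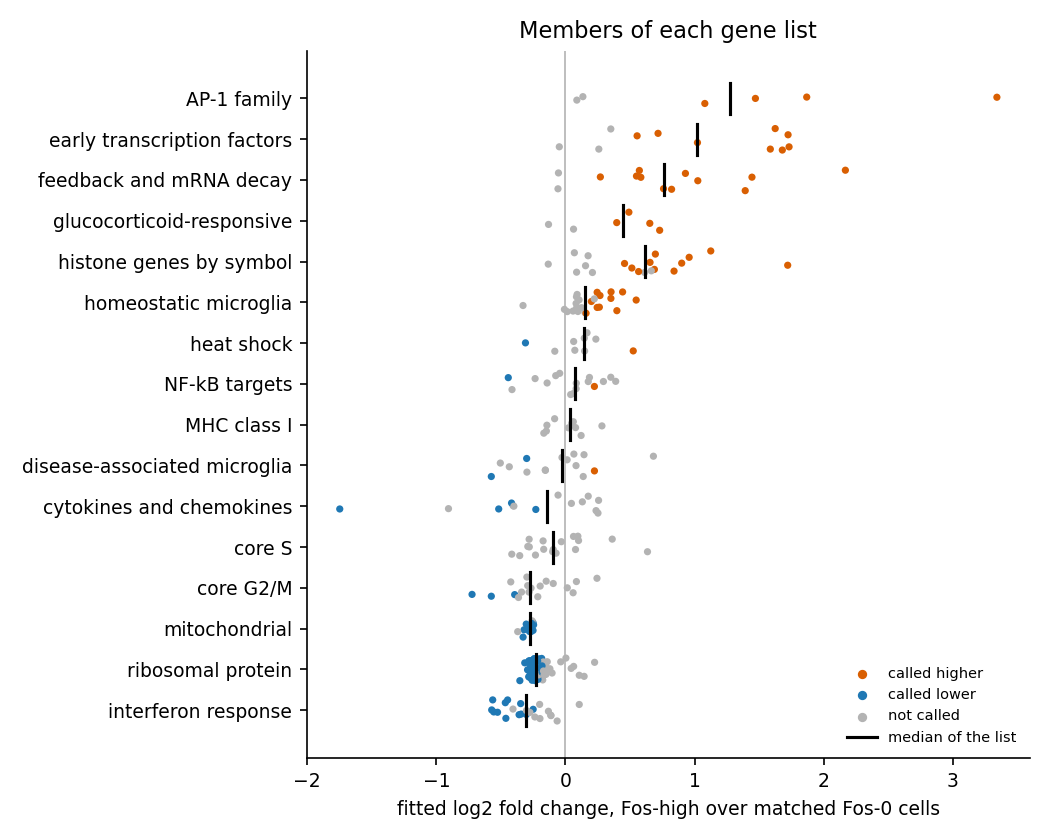
Log2 fold change of Fos-high over matched Fos-0 cells (horizontal axis) of each tested gene in the gene lists (vertical axis), with called genes coloured and the median of each list as a bar. The medians run from 1.28 for the AP-1 family to −0.30 for the interferon response.

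The Fos-high cells of the mixed libraries could be compared with those of control day 1 by value alone, since that library had 10 Fos-0 cells. Egr1 stood at 863 CPM in the Fos-high cells of control day 1 and at 92.8 to 469 in the paired ones of the mixed libraries, and Jun at 5230 against 1021 to 3014. Dusp1 stood at 1987 CPM against 122 to 527. Atf3 stood at 378 CPM there and at no more than 44.2 in the paired Fos-high cells of the mixed libraries. Rgs1 stood at 435 CPM there and at 557 in all Fos-high cells of A20 cKO naive, paired or not, so not every early gene was higher in control day 1.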

How the data were processed

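UMI counts per gene and cell barcode were deposited by the authors as 1 matrix per library, made with Cell Ranger 2.1.1 on mm10 per the submitters' processing notes. The 8 libraries held 1648400 to 15817426 UMIs over all deposited barcodes. Members, gene lists and tests were chosen with earlier results of these data known. Barcodes with at least 1000 UMIs, 500 genes and at most 10% mitochondrial UMIs were kept, and no doublet caller was run. Each Fos-high cell was paired with a Fos-0 cell of its library, nearest in total UMIs and within 10%. Counts were summed over paired cells, which gave 8 sums from 4 libraries, Fos was removed, and genes with at least 100 UMIs were fitted with edgeR 4.0.16 (R 4.3.3, TMM, quasi-likelihood, library as a block). SEs were derived from the fold change and F statistic, and calls are at a Benjamini-Hochberg adjusted p below 0.05. The fit was tested on simulated counts. DESeq2 1.42.0 was an alternative. Each library was 1 pool of cords, and the 4 pools are the replicates of the paired difference. SEs and p-values rest on a dispersion that is shared in part over all tested genes. For a gene whose ratios differ much between the libraries, such as Ier2, the SE and p-value do not measure that spread. Per-library intervals (exact Poisson, Clopper-Pearson, Newcombe or conditional, 95%) cover counting error only. Python 3.11.15, numpy 2.4.6, scipy 1.17.1 and matplotlib 3.10.9 were used for sums, thinning to 2000 UMIs, intervals and plots. Genes were named if called, with a mean of at least 50 CPM and the same direction in every library. Of these, the 10 largest fold changes in each direction were taken, leaving out Fos, Xist and mitochondrial, ribosomal protein, Y-linked and predicted genes. The markers and members of the gene lists were named too. Promoter windows came from RefSeq (GRCm38.p6). Values of some listed genes are not reported here.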

Additional observations from a re-analysis of the deposited data

Results flagged for a closer look

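The Junb ratio of control day 2 (log2 0.68) lay far below those of the other 3 libraries (1.20 to 1.23), with a gap of 0.938 of the whole range over 4 values. It is past the limit (Dixon's 95% critical value) that chance passes in about 1 of 20 groups of values.

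For 14 genes, all members of the gene lists, the counting interval of the ratio lay above 0 in at least 1 library and below 0 in another. These differences between libraries were not tested. The share of all tested genes with such intervals is not given here, so the count is not read as unusual. The intervals also leave out the spread between cells. For each gene 1 library of either side is given. Chemokine genes were Ccl3 (1.93 in control day 3, −0.85 in control day 2), Ccl4 (2.71 and −1.44 in the same libraries) and Ccl7 (0.81 in A20 cKO naive, −1.22 in control day 2). Of the 192 Ccl4 UMIs in Fos-high cells of control day 3, 65 came from 1 cell, and of the 338 in Fos-0 cells of control day 2, 131 did. Antigen-presentation genes were H2-K1 (0.31 in control day 3, −0.25 in A20 cKO naive), H2-D1 (0.175 and −0.24 in the same libraries), B2m (0.0703 in A20 cKO day 3, −0.09 in control day 2) and H2-Q7 (0.28 in A20 cKO day 3, −0.48 in A20 cKO naive). Spp1 was at 3.64 in control day 3 and at −1.01, −1.26 and −2.23 in control day 2, A20 cKO naive and A20 cKO day 3, and 1 Fos-high cell of control day 3 held 170 of its 218 UMIs. Control day 3 was the higher side for Apoe (0.69, −0.31 in control day 2), Lpl (1.30, −1.49 in A20 cKO day 3), Ctsb (0.12, −0.06 in A20 cKO naive) and Lgals3 (1.51, −3.57 in A20 cKO day 3). Rnase4 was at 0.23 in A20 cKO naive and −0.18 in control day 3, and Ccnb1 at 1.59 in A20 cKO day 3 and −0.79 in control day 2.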

How the results depend on the processing

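Against 175 higher and 210 lower genes, the counts were 299 and 110 without pairing on total UMIs and 111 higher with dividing cells left out. DESeq2 called 62 and 99 of the 1771 genes to which it gave an adjusted p. Leaving out 1 library at a time gave 81 to 198 higher and 60 to 239 lower, lowest without A20 cKO naive for the higher and without control day 3 for the lower genes. The library block stands for the pairing of both kinds of cell within a library, and without a replicate block edgeR called 0 genes in either direction, with 110 at an unadjusted p below 0.05. The share of Fos-high cells was 2.098%, 7.19%, 13.8% and 11.5% at 2000 UMIs per cell and 3.46%, 6.61%, 11.3% and 15.8% at a minimum of 5 Fos UMIs, for control day 2, control day 3, A20 cKO naive and A20 cKO day 3. Egr1, Junb, Fosb, Dusp1, Jun, Ier2, Klf2, Jund, Rgs1, Luc7l3 and AI607873 were called under all 18 settings other than the one without the block. Of the lower genes, Cox6a2, Cst7 and Cd244 were called in 14 of 17 and Cybb in 14 of 18. Leaving out cells under 3 microglia markers, a setting chosen after seeing the data, gave 170 higher and 244 lower genes. The cause of these changes was not tested. Each condition was 1 library, and depth limited Nr4a1 and other early genes too low to test.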
